A study of Mus musculus with 13 samples.

Results

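The respiratory chain of brown fat was followed through the nuclear genes that encode its subunits. Members were the genes in the count table whose symbols carry the names of subunits of complexes I to V (Nduf, Sdh, Uqcr, Cyc1, Cox4 to Cox8 and Atp5), with pseudogene names left out and a mean CPM (tags of a gene scaled to the same library total) of at least 5 over 13 libraries. The names matched 86 rows, and 81 of them reached the threshold, of 11073 genes tested and 55357 in the table. Complex I had 36 members, complex II had 4, complex III had 9, complex IV had 16 and complex V had 16. Ndufa4 carries a complex I name but is counted here with complex IV, where its protein is now placed. Just inside the threshold lay Cox6a2 at 6.77, Atp5g1 at 7.12 and Cox6b2 at 9.08 mean CPM by total counts. Just outside lay Atp5g2 at 2.29 and Cox4i2 at 0.646 mean CPM, and Cox7b2, Cox8c and a second row named Atp5o were listed at 0. All 81 members passed the filter on low counts.

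Brown adipose tissue burns fuel to make heat. Complexes I and II feed electrons from NADH and succinate into the inner mitochondrial membrane, complexes III and IV carry them to oxygen, and complexes I, III and IV pump protons as they do so. Complex V, the ATP synthase, normally uses the proton gradient, but in brown fat the uncoupling protein Ucp1 lets protons return without making ATP. Most subunits are nuclear genes, whose transcription is known to depend on the factors NRF1, GABPA, ERR alpha and YY1 and on the cold-induced coactivator PGC-1 alpha, the product of Ppargc1a.

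Transcripts were counted in brown adipose tissue of mice lacking Stim1 and Stim2 in fat cells, and of controls. Both genes encode proteins that sense calcium inside the endoplasmic reticulum and open calcium entry at the cell surface. KO cold libraries (n = 4) came from mice with the deletion, driven in adipocytes from the adiponectin promoter, after 6 h at 4 °C, and control cold libraries (n = 4) from Stim1/2 floxed mice without it, exposed likewise. KO RT (n = 3) and control RT (n = 2) libraries came from mice of the same genotypes kept at room temperature (RT). Ages, and whether each library came from its own animal, are not given in the labels, so each p-value here reflects how far these samples spread, which may in part be technical. The deletion was driven in adipocytes, and the other cells of the tissue keep both genes.

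Library totals ran from 1570684 to 2016178 counts, and members took 6.04% to 7.66% of them (median 7.03%). Each mRNA gave tags from its 3′ end, so CPM values are not divided by transcript length. At either temperature no KO library reached the lowest control library for Stim1 or Stim2: means were 91.2 ± 13.6 CPM in KO cold against 124 ± 8.68 CPM in control cold for Stim1, and 22.9 ± 7.05 against 42.7 ± 12.8 CPM for Stim2. Between the cold groups Stim2 was called (q = 0.0382) and Stim1 was not (q = 0.0570). A tag need not lie in the deleted part of the gene. Ucp1, the defining marker of brown adipocytes, was present in every library, at 6125 to 6905 CPM in KO cold, 7504 to 9365 CPM in control cold, 2436 to 3601 CPM in KO RT and 3186 to 3856 CPM in control RT. Skeletal muscle markers stood apart in a few libraries: the sum of 14 such genes was 2917 CPM in control RT 1, 1866 CPM in KO RT 1 and 1274 CPM in KO RT 2, and 50.7 to 425 CPM in the other 10 libraries. In tissue libraries, fewer cells of a type and less RNA per cell cannot be told apart.

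Called means an adjusted p (q) under 0.05, by edgeR's quasi-likelihood test with Benjamini-Hochberg adjustment over all 11073 tested genes. A fold change is log2, and its error is the standard error of the fit. After 6 h of cold 5 members were called higher in control tissue, and they lie in complexes II to V: Sdhb, Uqcrfs1, Cox6b1, Atp5md and Atp5b. Their promoters are shown because the factors named above are known to act at such sites. They are the RefSeq windows from 250 bases before to 50 bases after the start of each gene, on GRCm38.p6 and read 5′ to 3′ along the gene. Capitals mark matches, on either strand, to GCNTGCGC for NRF1, CCGGAAG for GABPA, AAGGTCA for ERR and AANATGGC for YY1.
Sdhb, chr4:140961021-140961320, plus strand: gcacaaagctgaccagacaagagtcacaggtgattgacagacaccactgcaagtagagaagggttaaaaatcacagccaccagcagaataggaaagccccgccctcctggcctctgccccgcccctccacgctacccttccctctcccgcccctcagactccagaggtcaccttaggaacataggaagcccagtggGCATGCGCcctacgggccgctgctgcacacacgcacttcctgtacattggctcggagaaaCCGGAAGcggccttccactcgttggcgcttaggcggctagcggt
Uqcrfs1, chr13:30545267-30545566, minus strand: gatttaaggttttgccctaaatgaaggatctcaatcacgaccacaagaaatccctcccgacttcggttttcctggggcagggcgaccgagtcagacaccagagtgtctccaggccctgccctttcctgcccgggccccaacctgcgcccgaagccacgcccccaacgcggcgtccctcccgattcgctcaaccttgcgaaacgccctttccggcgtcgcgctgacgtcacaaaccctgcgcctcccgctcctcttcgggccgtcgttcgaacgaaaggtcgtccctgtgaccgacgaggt
Cox6b1, chr7:30626065-30626364, minus strand: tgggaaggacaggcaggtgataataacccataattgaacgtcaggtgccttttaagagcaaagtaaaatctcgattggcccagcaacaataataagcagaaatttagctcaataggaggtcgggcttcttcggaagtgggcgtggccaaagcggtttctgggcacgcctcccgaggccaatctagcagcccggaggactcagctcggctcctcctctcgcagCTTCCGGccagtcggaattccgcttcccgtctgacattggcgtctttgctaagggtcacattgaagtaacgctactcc
Atp5md, chr19:47090598-47090897, minus strand: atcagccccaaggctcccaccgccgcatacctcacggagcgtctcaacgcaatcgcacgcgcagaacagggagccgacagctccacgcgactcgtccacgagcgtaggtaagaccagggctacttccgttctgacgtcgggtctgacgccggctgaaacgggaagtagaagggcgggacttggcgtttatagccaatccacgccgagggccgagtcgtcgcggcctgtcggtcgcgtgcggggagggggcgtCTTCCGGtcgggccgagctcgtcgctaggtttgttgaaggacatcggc
Atp5b, chr10:128083057-128083356, plus strand: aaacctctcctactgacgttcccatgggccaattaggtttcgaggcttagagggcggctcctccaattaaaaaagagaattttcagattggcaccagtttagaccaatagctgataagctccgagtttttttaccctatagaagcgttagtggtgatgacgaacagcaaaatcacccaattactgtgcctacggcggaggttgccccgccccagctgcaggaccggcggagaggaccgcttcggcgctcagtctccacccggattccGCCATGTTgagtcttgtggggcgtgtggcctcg

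The Sdhb window held 1 NRF1 and 1 GABPA match, those of Cox6b1 and Atp5md held 1 GABPA match each, and that of Atp5b held 1 YY1 match. That of Uqcrfs1 held none of these letters. No match printed here overlaps another. Of the 81 members, 66 had a promoter in the RefSeq table. Among these, 31.8% held an NRF1 match, 24.2% a GABPA match, 12.1% an ERR match and 25.8% a YY1 match. Over all 27025 genes of the table the shares were 11.2%, 9.93%, 5.38% and 6.96% in the same order. A total of 44 of the 66 members (66.7%) held at least 1 of the 4 motifs, against 28.3% of all genes. That background includes genes not tested here, while every member was tested. Shares among the tested genes alone were not taken. A match describes letters in these windows and does not show that a factor was bound there.

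**Figure D1:**
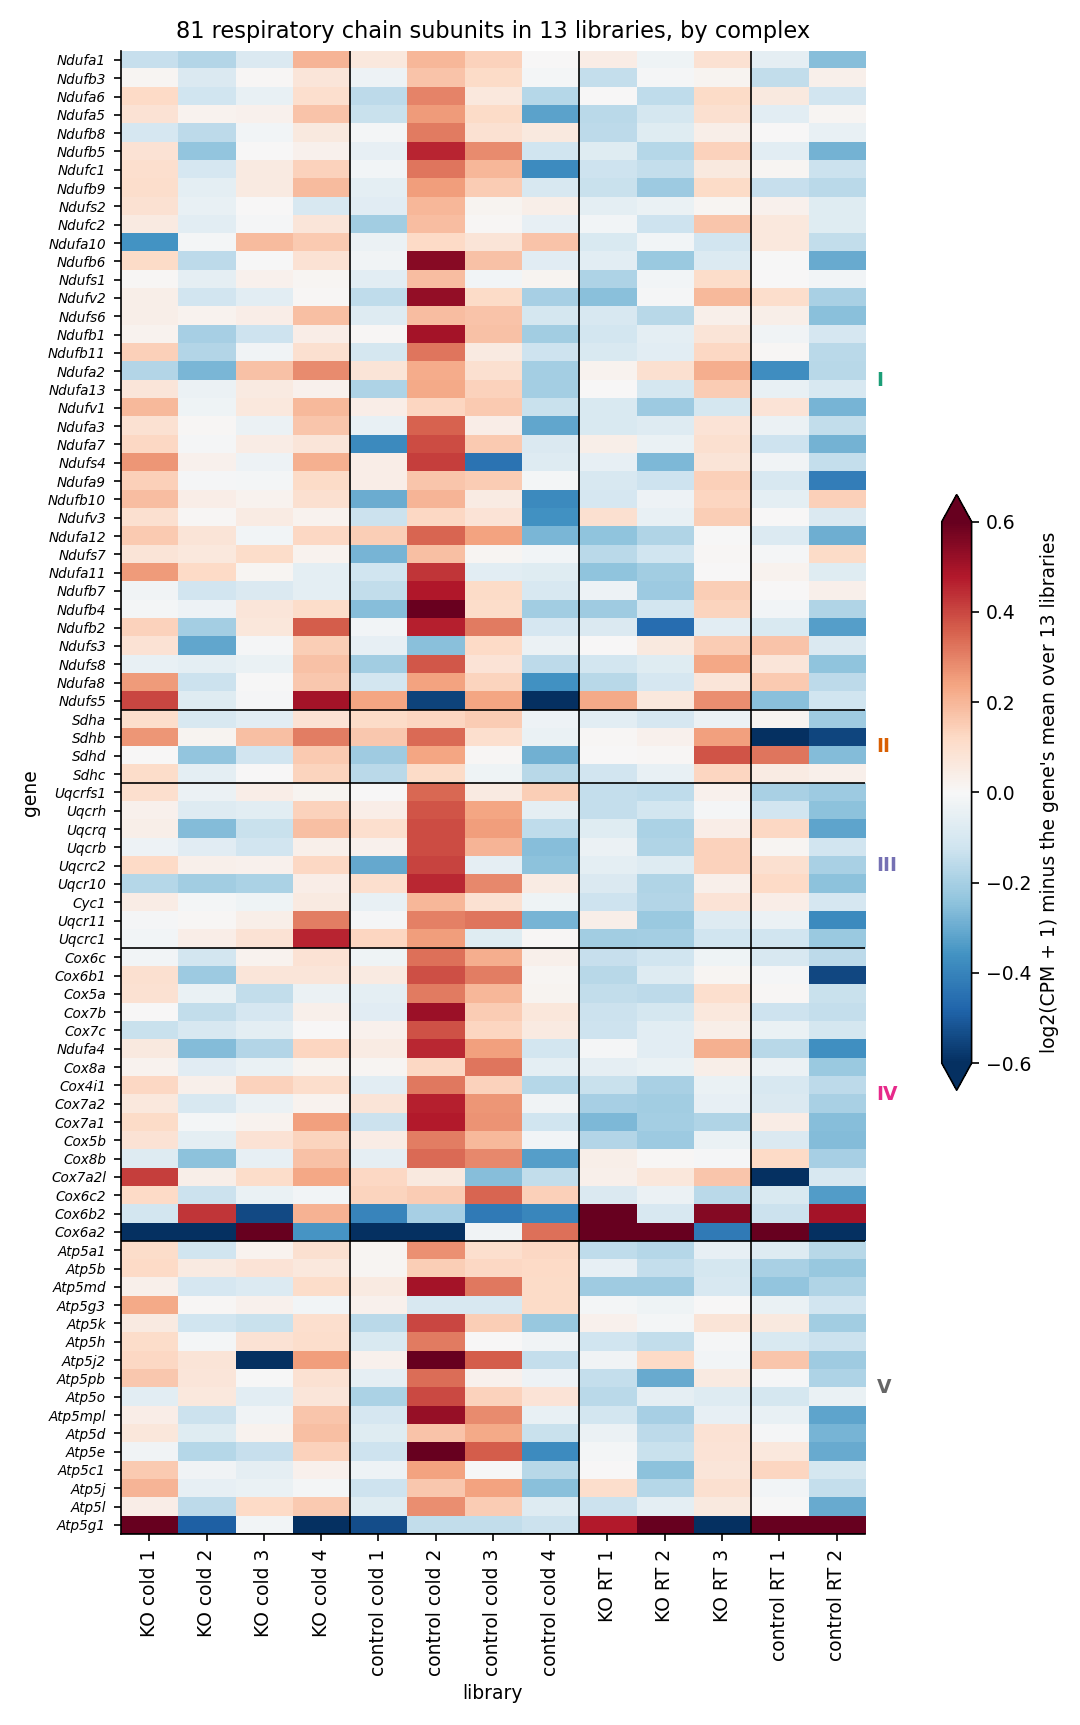
Level of the 81 members (rows, by complex I to V and by mean level within each) in 13 libraries (columns, with KO left of control at each temperature), as log2(CPM + 1) minus the gene's mean over the libraries, with the colour cut at 0.6 either way. Control cold 2 is high across complexes, with the highest value of 13 libraries in 59 of 81 members, and Sdhb is low in both control RT libraries.

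The respiratory chain transcripts of cold KO tissue were close to those of cold control tissue. Of 81 members, 0 were called in KO cold against control cold, while 5.93% of all tested genes were called (657 of 11073). A total of 4 members had an unadjusted p under 0.05, against 2224 of all genes, and the DESeq2 Wald test called 1 member. The median member change was -0.04 on the log2 scale, beside -0.01 for all tested genes, and 31 of 81 were above 0. Without control cold 2 the median was +0.04, and with total counts as the only scaling it was +0.06 beside +0.09 for all genes, so no direction is given for the members together. For 75 of 81 members (92.6%) the 95% interval of the change lay inside a 1.5-fold change in either direction, against 36.9% of all tested genes. Members were well measured, with a median standard error of 0.11 against 0.21 for all genes. Ppargc1a, in the same libraries, was at 365, 408, 552 and 233 CPM in KO cold, against 1557, 2677, 1114 and 1364 CPM in control cold (-2.11 ± 0.41, q = 0.00714).

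In complex I, which takes electrons from NADH, the 36 members ran from -0.21 to +0.39 in KO cold against control cold, with a median of -0.02. The 7 core catalytic subunits, which hold the flavin and the iron-sulfur clusters, lay between -0.14 and +0.09. The smallest p belonged to Ndufb8, a supernumerary subunit of the membrane arm, at 1136, 1094, 1204 and 1271 CPM in KO cold, against 1209, 1514, 1299 and 1269 CPM in control cold (-0.17 ± 0.09, q = 0.333). The groups overlapped. The next were Ndufs5 (+0.39 ± 0.22, q = 0.3399), the lowest member of the complex at 70.9 ± 14.2 CPM in KO cold, against 53.6 ± 20.8 CPM in control cold (SD, n = 4 each), and Ndufb1 (-0.21 ± 0.13, q = 0.394). The highest member was Ndufa1, another subunit of the membrane arm, at 1959.7 ± 247 CPM in KO cold, against 2167 ± 128 CPM in control cold.

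Complex II, succinate dehydrogenase, links the citric acid cycle to the chain. Its flavoprotein Sdha was at 1750.5 ± 126 CPM in KO cold, against 1852 ± 102.7 CPM in control cold (-0.08 ± 0.09, q = 0.662). The iron-sulfur subunit Sdhb was at 1061, 893, 1001 and 1094 CPM in KO cold, against 989, 1117, 948 and 858 CPM in control cold (+0.05 ± 0.12, q = 0.860). The membrane anchor Sdhc was at 616 ± 38.3 CPM in KO cold, against 573 ± 54.5 CPM in control cold (+0.10 ± 0.10, q = 0.601). All 4 members, the anchor Sdhd at +0.01 included, had intervals inside a 1.5-fold change.

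In complex III, which passes electrons from ubiquinol to cytochrome c, the smallest q of all members was that of Uqcr10, a small supernumerary subunit. It was at 698, 681, 688 and 808 CPM in KO cold, against 843, 1076, 961 and 814 CPM in control cold (-0.36 ± 0.11, q = 0.0709). All KO cold libraries lay below all control cold libraries, by a narrow margin between 808 and 814 CPM. Uqcr10 was not called by edgeR, and the DESeq2 Wald test gave q = 0.0455. The other small subunits Uqcrq (-0.20 ± 0.13) and Uqcrh (-0.15 ± 0.10) had q = 0.438. The 5 supernumerary subunits lay between -0.36 and -0.01, while the core proteins Uqcrc1 and Uqcrc2 were at +0.07 and +0.10 and the redox subunits Cyc1 and Uqcrfs1 at -0.04 and -0.11.

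In complex IV, cytochrome c oxidase, 4 of 16 members were above 0 in KO cold against control cold and the median was -0.14. Total counts as the only scaling moved the median of all genes in this comparison from -0.01 to +0.09. The complex IV median was not taken under that scaling or without control cold 2, so no direction is given. Cox7c, a small membrane subunit, was at 1364, 1401, 1435 and 1496 CPM in KO cold, against 1520.0, 1947, 1634 and 1552 CPM in control cold (-0.22 ± 0.09, q = 0.178). Its groups did not overlap. Cox7b (-0.24 ± 0.11, q = 0.246) and Cox7a2 (-0.22 ± 0.10, q = 0.249), also small subunits, followed. Over all members, 3 (3.7%) had KO cold libraries that all lay below control cold, namely Uqcr10, Cox7c and Cox6c2, and 0 had all above, while groups did not overlap for 12.8% of all tested genes. The highest member, Cox6c, was at 2617 ± 148 CPM in KO cold, against 2901 ± 335 CPM in control cold (-0.15 ± 0.09, q = 0.396).

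In complex V the smallest p was that of Atp5md, a small membrane subunit known to hold synthase dimers together, at 1706, 1555, 1578 and 1802 CPM in KO cold, against 1734, 2363, 2076 and 1808 CPM in control cold (-0.26 ± 0.10, q = 0.145). The groups overlapped only between 1734 and 1802 CPM. The catalytic beta subunit Atp5b (-0.02 ± 0.08, q = 0.912) and the alpha subunit Atp5a1 (-0.10 ± 0.09, q = 0.565), the highest member of all, had narrow intervals. Atp5j2, another membrane subunit, was at 1007, 975, 358 and 1099 CPM in KO cold, against 941, 1430.3, 1190.0 and 836 CPM in control cold (-0.35 ± 0.25, q = 0.4657). Only KO cold 3 was far below the rest. Atp5mpl, a small subunit of the membrane part, was at 685 ± 58.2 CPM in KO cold, against 770.4 ± 159.6 CPM in control cold (-0.17 ± 0.13, q = 0.509), with groups that overlapped. The 4 peripheral stalk subunits lay between -0.12 and +0.01.

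**Figure D2:**
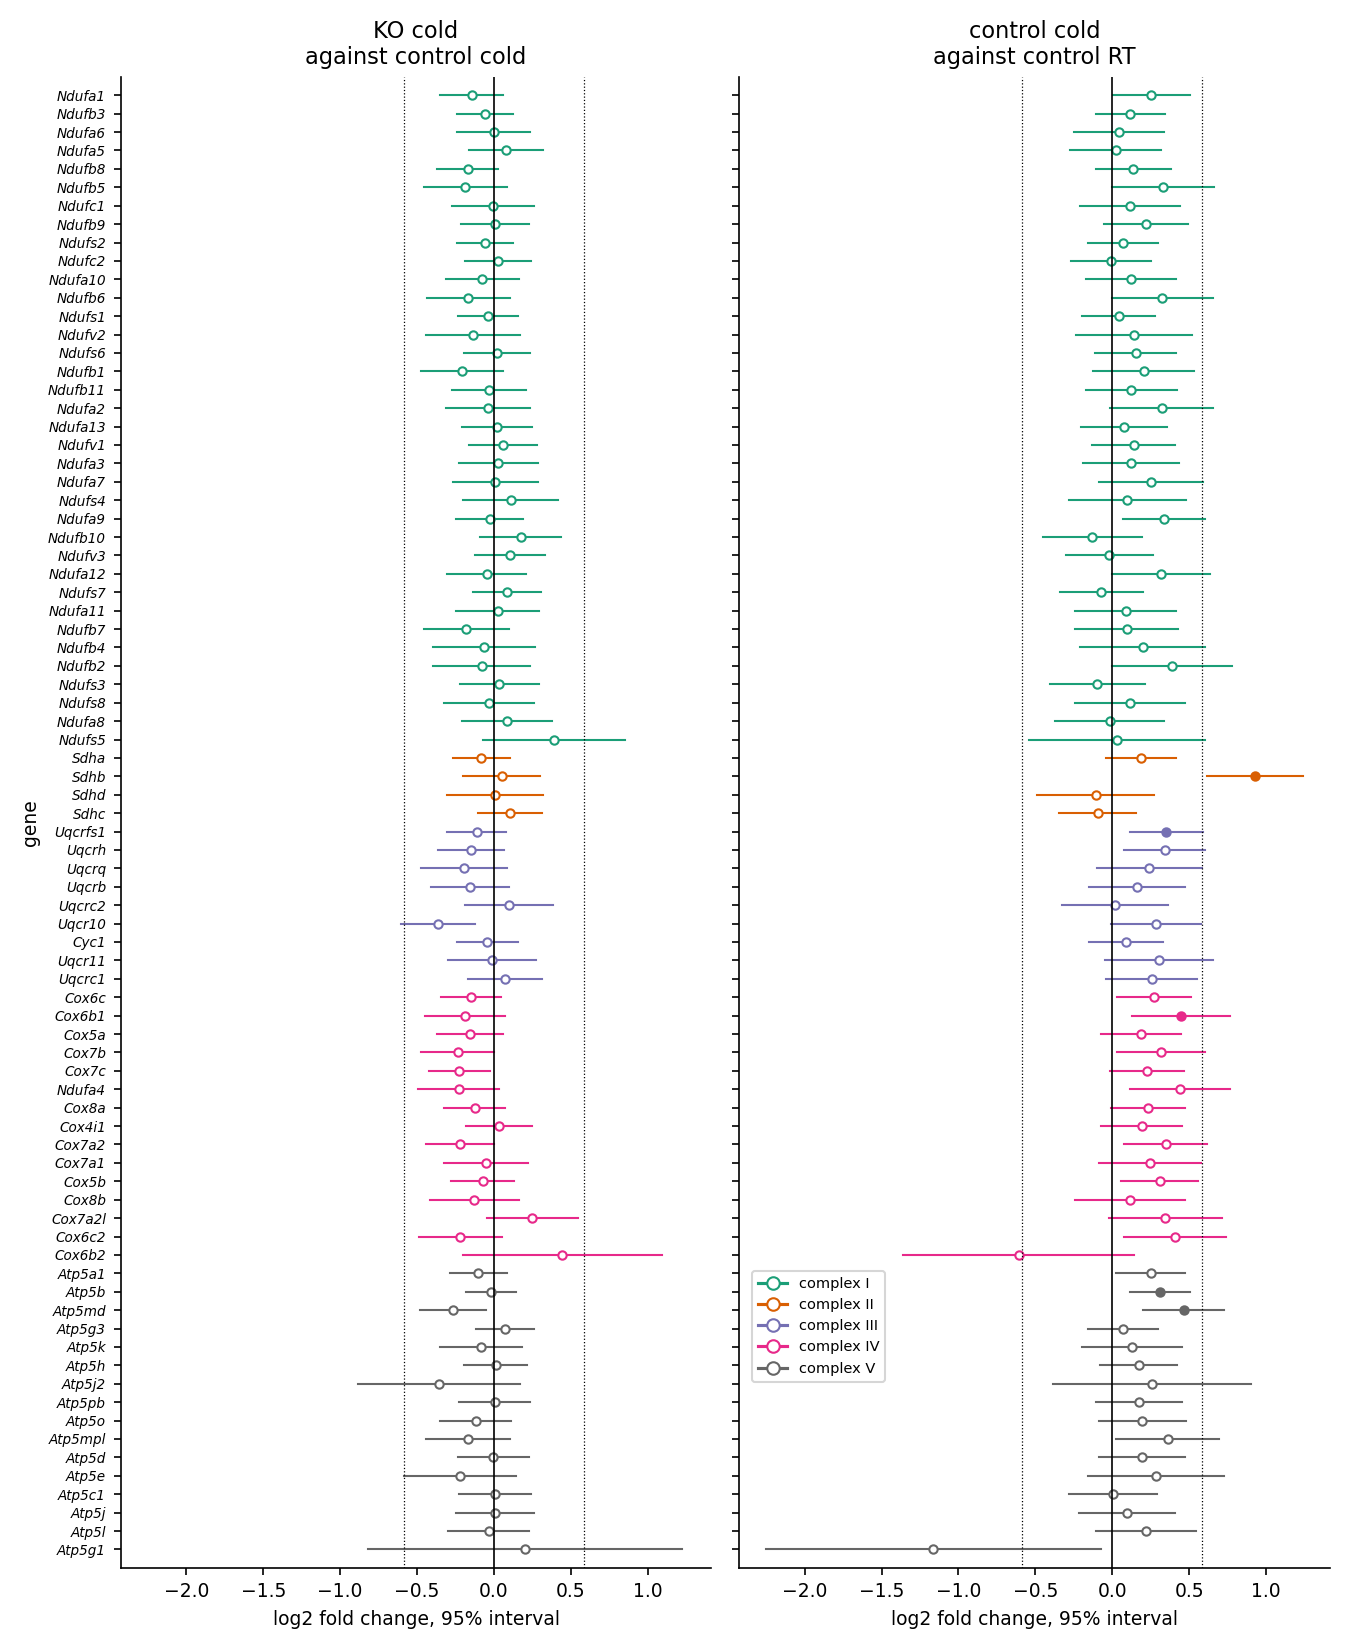
Log2 fold change (x axis, point with its 95% interval) of 80 members (rows), coloured by complex, in KO cold against control cold (left) and control cold against control RT (right). Filled points are called, dotted lines mark a 1.5-fold change, and Cox6a2, whose interval is wider than the axis, is left out. The left panel has no filled point, and in the right panel Sdhb stands furthest from 0 among the filled points at +0.93.

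At RT the KO and control libraries gave 0 calls among the 81 members of KO RT against control RT, and 0% of all tested genes were called. A total of 3 members and 346 of all genes had an unadjusted p under 0.05. The median member change was +0.03, beside 0.00 for all genes. The smallest p was that of Sdhb, at 887, 899 and 1049 CPM in KO RT, against 426 and 603 CPM in control RT (+0.88 ± 0.16, q = 0.349). The KO RT libraries lay above the control RT libraries, and DESeq2 called Sdhb here, as did edgeR with no filter on low counts. Cox7a2l, a subunit relative known to join complexes III and IV into supercomplexes, was at 137, 141 and 151 CPM in KO RT, against 80.0 and 125 CPM in control RT (+0.48 ± 0.18, q = 1). Ndufa2, a matrix-arm subunit of complex I, was at 659 ± 45.5 CPM in KO RT, against 506 ± 51.2 CPM in control RT (+0.38 ± 0.17, q = 1).

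After 6 h of cold a few subunits of complexes II to V were higher in control tissue, by 0.31 to 0.93 on the log2 scale. In control cold against control RT 6 of 81 members (7.41%) were called, 5 higher and 1 lower. Among all tested genes 25.2% were called, 12.7% higher and 12.6% lower, so the share of members called was below the background. By complex, 0 of 36 members were called in complex I, 1 of 4 in complex II, 1 of 9 in complex III, 2 of 16 in complex IV and 2 of 16 in complex V. Most members were slightly higher in cold: 70 of 81 were above 0, with a median of +0.19 beside -0.02 for all genes. This direction depends on the scaling. With total counts as the only scaling the median of all genes moved to -0.23 and that of the members to -0.03. Relative to all genes the members were 0.20 higher with the main scaling, 0.12 higher without control cold 2 and 0.11 higher without control RT 2. A change of scaling moves all genes of a contrast nearly alike, so it cannot test this difference.

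Sdhb, the iron-sulfur subunit of complex II, rose most among the called members. It was at 989, 1117, 948 and 858 CPM in control cold, against 426 and 603 CPM in control RT (+0.93 ± 0.15, q = 0.000478). Both control RT libraries lay below the other 11 libraries, KO RT included. Its partners did not pass the test: the flavoprotein Sdha was at +0.19 (q = 0.225), and the anchors Sdhc and Sdhd were at -0.10 and -0.11 (q = 0.593 and 0.698). Sdhb was called under all alternatives run.

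In complex III the Rieske iron-sulfur protein gene Uqcrfs1 rose. It was at 1720.4, 2180.4, 1782 and 1902 CPM in control cold, against 1499 and 1473 CPM in control RT (+0.35 ± 0.11, q = 0.0323). Uqcrh, the hinge subunit, had similar values that did not pass (+0.34 ± 0.12, q = 0.0579), and Uqcr10 was at +0.28 ± 0.14 (q = 0.152). All 9 members of the complex were above 0 with the main scaling. Uqcrfs1 was not called without control cold 2 or either control RT library, among other alternatives.

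In complex IV Cox6b1, a subunit facing the intermembrane space, rose. It was at 1916, 2407, 2279 and 1859 CPM in control cold, against 1836 and 1262 CPM in control RT (+0.45 ± 0.15, q = 0.0413). The groups nearly touched, at 1859 and 1836 CPM. The call was lost when any of 8 libraries was left out. Ndufa4 was at 1511, 1998, 1730.2 and 1354 CPM in control cold, against 1301 and 1132 CPM in control RT (+0.44 ± 0.15, q = 0.0501). Groups did not overlap in 9 of the 16 members (56.2%), 8 with control cold above and 1, Cox6b2, with it below. Over all 81 members of the 5 complexes the share was 25.9%, and over all tested genes it was 40.4%.

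Cox6a2, the heart and skeletal muscle form of subunit VIa, was the only member called lower, and its high control RT mean came from 1 library. Its counts were 0, 0, 5 and 6 in control cold, against 74 and 1 in control RT (-3.33 ± 1.21, q = 0.0279). The 74 counts belong to control RT 1, the library with the highest summed muscle markers, and the next highest counts, 36 and 17, belong to KO RT 1 and KO RT 2, which follow it in that sum. Without control RT 1 the change was +1.42 (q = 0.729), and without all of these libraries it was +1.42 (q = 0.697). Leaving out control cold 1 or control cold 2 also lost the call, as did the DESeq2 Wald test, limma voom and a block for replicate number. The part of muscle transcripts in this result was not tested otherwise. Between the cold groups Cox6a2 had 21 against 11 counts over 4 libraries each (+0.74, q = 0.789).

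In complex V the catalytic beta subunit Atp5b rose, at 1955, 2151, 2117 and 2109 CPM in control cold, against 1698 and 1660.3 CPM in control RT (+0.31 ± 0.09, q = 0.0244). Atp5md rose too, at 1734, 2363, 2076 and 1808 CPM in control cold, against 1417 and 1474 CPM in control RT (+0.47 ± 0.12, q = 0.0138). Neither gene's groups overlapped. Atp5b was not called without control RT 1 or control RT 2, nor was Atp5md without control RT 1. Neither was called with total counts as the only scaling or with only the groups compared in the fit. Atp5b was also lost with upper quartile scaling, with no filter on low counts and with a block for replicate number. Atp5a1, the alpha subunit, had +0.25 ± 0.11 (q = 0.0983).

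Complex I had no call in cold against RT in control tissue. Ndufa9, a subunit near the quinone site, came closest, at 365, 399, 395 and 353 CPM in control cold, against 332 and 266 CPM in control RT (+0.33 ± 0.13, q = 0.0655). All control cold libraries lay above both control RT libraries. Ndufa1 was at +0.26 ± 0.12 (q = 0.133) and Ndufb2, a membrane-arm subunit, at +0.39 ± 0.18 (q = 0.137). The 7 core catalytic subunits lay between -0.10 and +0.14.

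**Figure D3:**
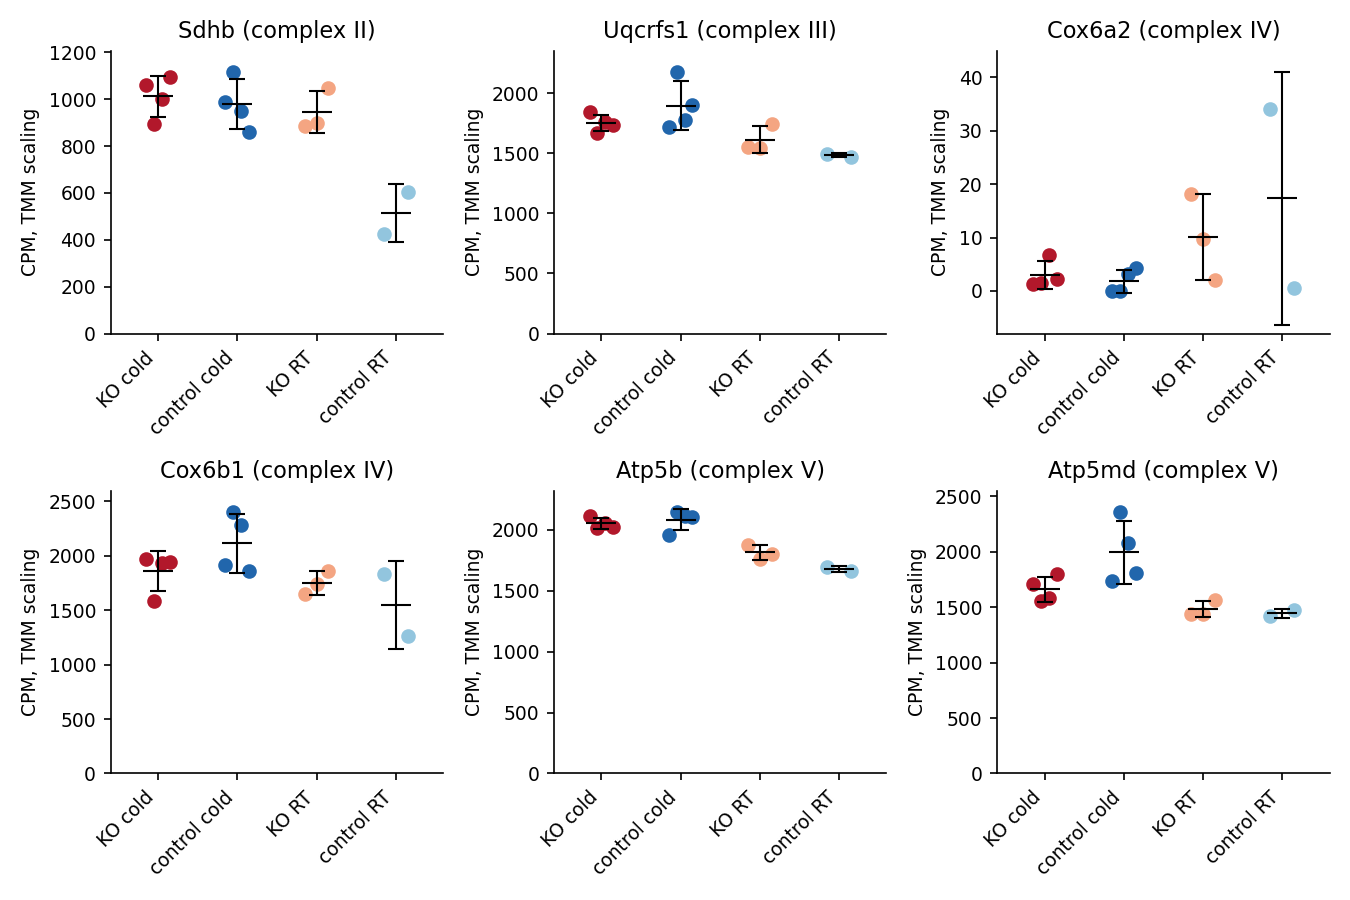
Level of the 6 members called in control cold against control RT, in CPM (y axis) by library (points) and group (x axis), with the mean and SD as bars. Sdhb is low in both control RT libraries, at 426 and 603 CPM, and the Cox6a2 mean of control RT comes from 1 library at 34.0 CPM.

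In KO tissue 0 of 81 members were called in KO cold against KO RT, and 18.9% of all tested genes were. A total of 4 members had an unadjusted p under 0.05, against 3580 of all genes. The smallest q was that of Uqcrc1, a core protein of complex III, at 425, 441, 457 and 591 CPM in KO cold, against 372, 374 and 396 CPM in KO RT (+0.33 ± 0.12, q = 0.0716). All KO cold libraries lay above all KO RT libraries. Cox7a1, the heart and brown fat form of subunit VIIa, was at 1208, 1106, 1134 and 1326 CPM in KO cold, against 926, 970.3 and 984 CPM in KO RT (+0.31 ± 0.14, q = 0.128), and was called when only these groups were fitted (q = 0.0240). Atp5b (+0.18 ± 0.08, q = 0.146) and Ndufv1, the NADH-binding subunit of complex I (+0.25 ± 0.11, q = 0.139), also had unadjusted p under 0.05. Sdhb was at +0.10 ± 0.13 (q = 0.637). The median member change was +0.08, beside -0.01 for all genes, and -0.03 beside -0.12 with total counts as the only scaling.

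The cold response of KO tissue minus that of control tissue was tested directly, and 0 of 81 members were called. Only 0.0181% of all tested genes (2 of 11073) were called in this difference, which has a larger error (median standard error 0.19 for members). A total of 2 members and 913 of all genes had an unadjusted p under 0.05. They were Sdhb (-0.83 ± 0.20, q = 0.252), called by DESeq2 and by edgeR with no filter, and Ndufa4 (-0.54 ± 0.20, q = 0.499). The values of Sdhb in this difference, in KO RT against control RT and in control cold against control RT share the same control RT libraries. For 44 members (54.3%) the interval lay inside a 1.5-fold difference. The median was -0.10 with the main scaling and 0.00 with total counts, where that of all genes was +0.10, and it was -0.03 without control cold 2 and -0.02 without control RT 2.

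Summed over the members, the chain took 70221 ± 3939 CPM in KO cold, 74738 ± 9203 CPM in control cold, 66934 ± 3928 CPM in KO RT and 64273 ± 4377 CPM in control RT. The control cold libraries were uneven, at 68123, 86693, 77226 and 66913 CPM. Control cold 2 gave the highest of the 4 values in 67 members, and control cold 4 the lowest in 45. Markers of other cell types, summed over each list, were at 554 to 647 CPM for fibroblasts, 119 to 157 CPM for macrophages and 739 to 886 CPM for endothelium in KO cold. In control cold they set control cold 2 apart: the summed fibroblast markers were at 1477 CPM there and 507 to 837 CPM in the other control cold libraries, those of macrophages at 311 and 110 to 198 CPM, and those of endothelium at 538 and 842 to 968 CPM. The part of these cells in the members' spread was not tested. The SD of log2 CPM was larger in control cold than in KO cold for 70 of 81 members, with a median of 0.10 in KO cold and 0.20 in control cold. Divided by total counts instead, the sums were 69080 ± 3498 CPM in KO cold, 68692 ± 7140 CPM in control cold, 70989 ± 2487 CPM in KO RT and 68350 ± 6106 CPM in control RT, so the order of the groups follows the scaling.

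By complex, complex I took 24305 ± 1360 CPM in KO cold, against 25053 ± 3144 CPM in control cold, while at RT it took 23456 ± 1590 CPM in KO RT, against 22714 ± 1163 CPM in control RT. Complex II took 3994 ± 315 CPM in KO cold, against 4014 ± 331 CPM in control cold, while at RT it took 3892 ± 279 CPM in KO RT, against 3413 ± 247 CPM in control RT. Complex III took 8711 ± 529 CPM in KO cold, against 9434 ± 1272 CPM in control cold, while at RT it took 8257 ± 587 CPM in KO RT, against 7977 ± 809 CPM in control RT. In each complex the KO cold libraries overlapped those of control cold, and for complex II both control RT libraries lay below the other 11 with TMM scaling, but not by total counts. Complex IV took 17763 ± 968 CPM in KO cold, against 19719 ± 2640 CPM in control cold, while at RT it took 16943 ± 972 CPM in KO RT, against 16191 ± 1308 CPM in control RT. Complex V took 15448 ± 928 CPM in KO cold, against 16518 ± 1885 CPM in control cold, while at RT it took 14387 ± 543 CPM in KO RT, against 13978 ± 850 CPM in control RT. These sums are descriptions with no test.

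**Figure D4:**
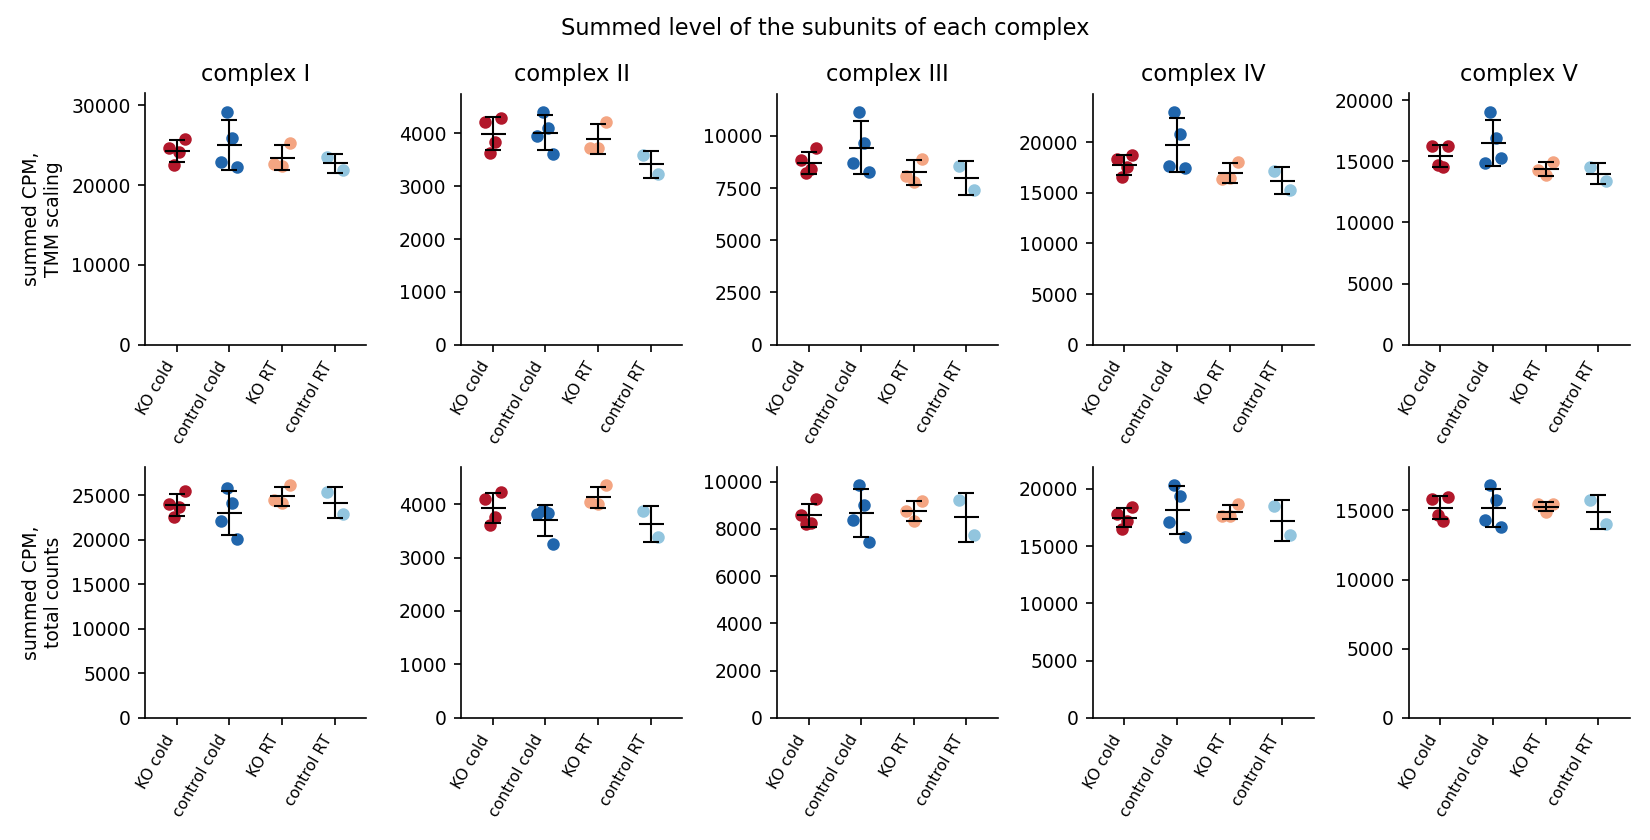
Summed CPM of the members of each complex (panels) by library (points) and group (x axis), with mean and SD as bars, with TMM scaling (top, trimmed mean of M values) and by total counts (bottom). In the top row control cold 2 is the highest library in each complex, and in both rows the KO cold libraries overlap those of control cold.

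Most members of complexes I, III, IV and V varied together from library to library. Over the 13 libraries the Pearson correlation of a member's log2 CPM with the median of the other members of its complex had a median of 0.74 in complex I, 0.21 in complex II, 0.73 in complex III, 0.79 in complex IV and 0.66 in complex V. These libraries share depth, scaling and tissue makeup, so the values are descriptions. The lowest were those of Cox6b2 and Cox6a2 in complex IV and Atp5g1 and Atp5g3 in complex V. Among genes that are not members, those most like the median member were Ndfip2 (0.94), Romo1 (0.91) and Rpl41 (0.91).

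Shorter members had lower changes in KO cold against control cold. Coding length was known for 79 members. Across them the Spearman correlation of length with the change was 0.409, and across all 10167 tested genes with a length it was 0.0676. Members of up to 408 bases (40) had a median of -0.08, and longer ones (39) a median of 0.00. The 521 other genes of that length had a median of -0.07, close to that of the short members. In control cold against control RT the correlation was -0.308 among members and -0.0331 among all genes, with medians of +0.24 for short and +0.12 for long members, and the other short genes were at +0.06, below the short members. Genes are not independent replicates, both comparisons use the same control cold libraries, and the part of transcript length in these values was not tested.

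**Figure D5:**
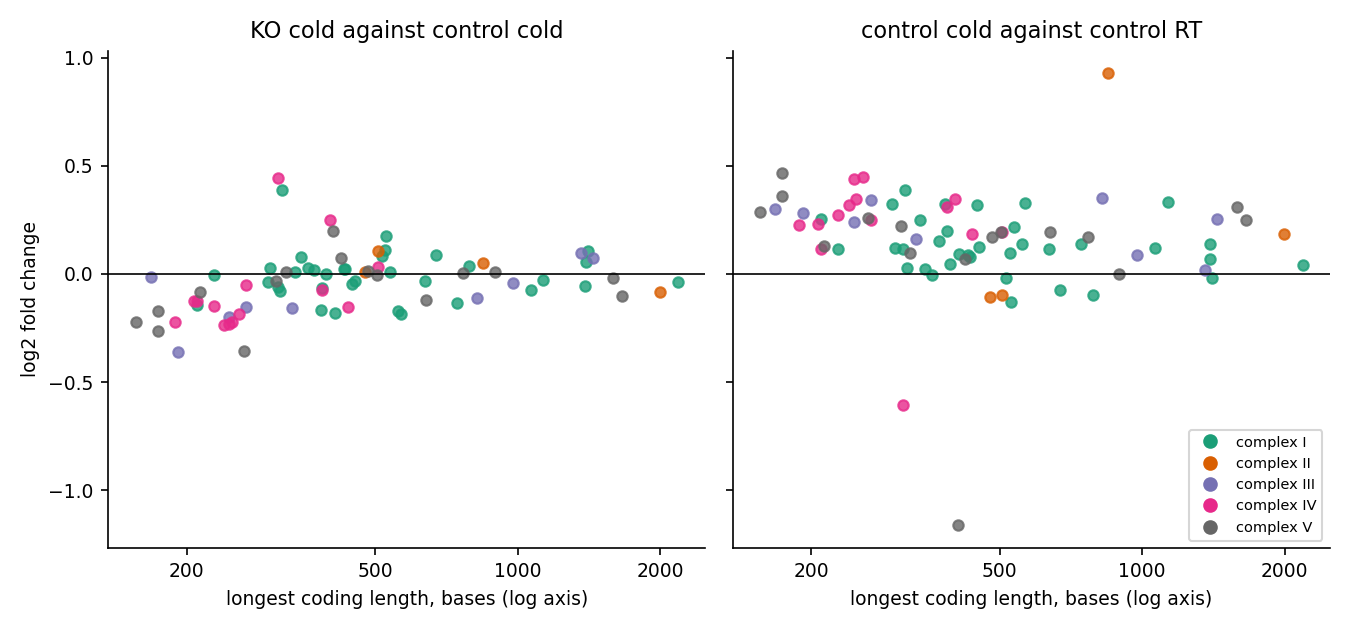
Log2 fold change (y axis) against the longest coding length in bases (x axis, log scale) for 78 members, coloured by complex, without Cox6a2. In KO cold against control cold (left) the short members lie mostly below 0, and in control cold against control RT (right) they lie mostly above it.

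Tissue forms of subunits were read side by side as ratios of tags. The heart and brown fat form Cox7a1 stood at 0.94 ± 0.06 of the general form Cox7a2 in KO cold and 0.83 ± 0.06 in control cold, and at 0.83 ± 0.04 in KO RT and 0.89 ± 0.08 in control RT. Cox8b, the form of heart, muscle and brown fat, stood at 0.496 ± 0.051 of Cox8a in KO cold and 0.495 ± 0.070 in control cold, and at 0.517 ± 0.023 in KO RT and 0.539 ± 0.036 in control RT. Cox4i1 was at 1393 ± 45.9 CPM in KO cold, against 1361 ± 206 CPM in control cold, while its lung-type form Cox4i2 had at most 3 counts in a library. Of the genes for the membrane ring of complex V, Atp5g3 was at 1244 ± 102 CPM in KO cold, against 1183 ± 85.1 CPM in control cold, while Atp5g1 had 4 to 27 counts and Atp5g2 0 to 10 counts in a library. Cox6c2 had 1.28% to 1.63% of the counts of Cox6c in every library, and how reads were split between such pairs is not given. Ndufa4l2, the hypoxia-induced relative of Ndufa4, was at 4.15 ± 2.19 CPM in KO cold, against 2.19 ± 0.760 CPM in control cold (q = 0.328).

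Genes that work with the chain were read in the same comparisons. Cycs, the somatic cytochrome c that links complexes III and IV, rose in cold in both genotypes. It was at 581, 554, 529.9 and 528 CPM in KO cold, against 399, 329 and 437 CPM in KO RT (+0.50 ± 0.15, q = 0.0289), and at 477, 771, 615 and 493 CPM in control cold, against 426 and 401 CPM in control RT (+0.51 ± 0.17, q = 0.0388). Control RT had 2 libraries, and how the Cycs calls depend on the scaling or on single libraries was not tested. Ndufab1, the acyl carrier protein bound to complex I, was at +0.28 ± 0.10 in KO (q = 0.0751) and +0.32 ± 0.12 in control (q = 0.0557). Atpif1, the inhibitor of complex V, was at 22.1 ± 4.66 CPM in KO cold, against 22.8 ± 3.61 CPM in control cold (q = 0.930).

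Assembly factors build the complexes without staying in them. Between KO cold and control cold Ndufaf4 of complex I was the only call of 18 tested, and it fell to 234 ± 26.6 CPM in KO cold, against 315 ± 16.7 CPM in control cold (-0.43 ± 0.12, q = 0.0376). Cox19, needed to deliver copper to complex IV, was lower as the only call of 25, at 14.7, 19.3, 24.8 and 24.8 CPM in KO cold, against 50.7, 49.4, 57.6 and 51.5 CPM in control cold (-1.32 ± 0.17, q = 0.000171). At RT Cox19 was at 19.8, 24.7 and 26.2 CPM in KO RT, against 36.3 and 36.8 CPM in control RT (-0.63 ± 0.21, not called). For complex V, Dmac2l rose as the only call of 6 (+0.85 ± 0.20, q = 0.0165), and factors of complexes II and III gave 0 calls of 4 and 6. The share called over all tested genes in this comparison was 5.93%. List medians were -0.06, +0.21, +0.02, -0.10 and -0.04 for factors of complexes I to V.

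In control cold against control RT the factors gave 1 higher call of 18 for complex I, 1 lower of 4 for complex II, 1 higher and 3 lower of 6 for complex III, 4 higher and 1 lower of 25 for complex IV and 1 higher of 6 for complex V. Over all tested genes 12.7% were called higher and 12.6% lower, so calls among factors are read here gene by gene. Ndufaf4 reached 315 ± 16.7 CPM in control cold, against 156 ± 34.9 CPM in control RT (+1.01 ± 0.15, q = 0.000202). Sco2, a copper chaperone of complex IV, rose (+1.22 ± 0.23, q = 0.00131), as did Coa7 (+0.69 ± 0.17, q = 0.00889) and Cox10, which makes heme A for complex IV (+0.52 ± 0.13, q = 0.0105). Sdhaf1, which aids the insertion of iron-sulfur clusters into Sdhb, fell (-1.04 ± 0.26, q = 0.00786). In KO cold against KO RT, where 18.9% of all tested genes were called, factors of complex I gave 1 higher call of 18. Those of complex II gave 1 lower of 4, and those of complex III 1 higher and 1 lower of 6. Complex IV had 1 higher and 1 lower of 25, and complex V had 0 of 6. Ndufaf4 (+0.53 ± 0.13, q = 0.00930) and Sco2 (+0.84 ± 0.20, q = 0.00644) rose and Sdhaf1 fell (-0.68 ± 0.23, q = 0.0449). Ttc19 was also called higher, and Bcs1l and Cmc1 lower.

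Of 15 regulators of respiratory genes, 1 was called higher and 2 lower in KO cold against control cold, where 5.93% of all tested genes were called. Perm1, a regulator known from muscle to be induced by PGC-1 and ERR, was at 71.0, 35.5, 79.9 and 65.5 CPM in KO cold, against 157, 157, 196 and 123 CPM in control cold (-1.33 ± 0.21, q = 0.00119). Ppargc1a was lower as given above, and Ppara was higher, at 248 ± 60.1 CPM in KO cold, against 142 ± 35.0 CPM in control cold (+0.81 ± 0.18, q = 0.0145). In control cold against control RT 5 were called higher and 1 lower, where 25.2% of all tested genes were called. The lower call was Ppara, at 142 ± 35.0 CPM in control cold, against 248 ± 30.2 CPM in control RT (-0.80 ± 0.22, q = 0.0120). Ppargc1a rose (+2.26 ± 0.50, q = 0.00767), from control RT libraries that lay far apart, at 128 and 577 CPM. Perm1 (+1.91 ± 0.27, q = 0.000187) and Gabpa, the DNA-binding part of a factor of respiratory promoters (+0.83 ± 0.22, q = 0.0142), rose too. Between KO cold and KO RT 3 of 15 were called higher and 0 lower. In either direction 18.9% of all tested genes were called, a share near that of the list, and 1044 of 11073 were called higher. The 3 regulators include Perm1 (+1.61 ± 0.27, q = 0.000577) and Gabpa (+0.96 ± 0.19, q = 0.00264), while Ppargc1a did not pass (+0.95 ± 0.45, q = 0.165). In the difference of cold responses 0 of the 15 were called, with Ppargc1a at -1.31 ± 0.67 (q = 0.652) and Perm1 at -0.30 ± 0.38 (q = 0.888).

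The subunits encoded by mitochondrial DNA were compared for the same complexes. Of 13 such genes 8 passed the filter, and 0 were called in KO cold against control cold, with a list median of -0.14. In control cold against control RT 6 of 8 were called higher, where 12.7% of all tested genes were, with a median of +0.34. They were led by mt-Co1 of complex IV, at 8460 ± 1411 CPM in control cold, against 4587 ± 1299 CPM in control RT (+0.88 ± 0.16, q = 0.00156), and mt-Nd5 of complex I (+0.61 ± 0.13, q = 0.00426). The calls of mt-Nd6, mt-Nd2, mt-Nd1 and mt-Cytb lay near the threshold, with q of 0.0433 to 0.0485. Control RT had 2 libraries, and with total counts as the only scaling the median of all genes was -0.23 instead of -0.02. How these calls depend on the scaling or on single libraries was not tested. Between KO cold and KO RT 18.9% of all tested genes were called in either direction, and 1044 of 11073 were called higher. Of the 8, 2 were called higher and 0 lower, mt-Co1 (+0.63 ± 0.14, q = 0.00655) and mt-Nd5 (+0.41 ± 0.12, q = 0.0246). In KO RT against control RT 0 were called, as in the difference of cold responses.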

How the data were processed

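Brown adipose tissue RNA was counted in 13 libraries (4 KO cold, 4 control cold, 3 KO RT, 2 control RT), all with the same batch label. The authors deposited unscaled counts for each Ensembl gene. Libraries were made with a QuantSeq 3′ kit, per the labels' protocols. Per the submitters' processing notes, the build was GRCm39 and the tools included HTSeq 0.12.3, STAR 2.7.10b, UMI-tools 1.1.2, Trim Galore 0.6.7, limma and edgeR. The sources used here do not give whether strand was used or tags were collapsed by molecular identifier, so an overlapping or antisense gene cannot be told apart, and reads of near-identical copies could be split.

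Of 55632 lines, 275 that repeated an identifier with the same counts were dropped. Members and lists were chosen with earlier results of these data known. All 13 libraries entered 1 fit in edgeR 4.0.16 (R 4.3.3; quasi-likelihood, TMM scaling, filterByExpr with a minimum count of 10) with a coefficient per group, and 5 two-sided contrasts were tested at an adjusted p of 0.05 after a test on simulated data. Levels are TMM-scaled CPM, given as mean ± SD. Each pair of replicates differed by more than sampling noise. Coding lengths came from GENCODE M21 and promoters from RefSeq, both on GRCm38. Named members were those called, those with the 3 smallest p per complex in both main contrasts, the highest and lowest of a complex, and tissue isoforms. Some others, such as Ndufa2, Ndufv1 and Sdhd, were named after their values were seen. A total of 25 alternatives was run: 13 left out 1 library each and 12 changed scaling, filter, test (DESeq2 1.42.0, limma 3.58.1 voom), groups, block or membership.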

Additional observations from a re-analysis of the deposited data

Results flagged for a closer look

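Dixon's criterion was applied 172 times, to the 81 members and the sums of the 5 complexes in both groups of 4 libraries. A library stood apart from its group in 12 of these (6.98%, where chance gives about 5%, or 1 in 20), all of them single members. No explanation was tested for any of them. In KO cold 4 Uqcr11 was at 609.5 CPM (others 491 to 506), Ndufs6 at 736 CPM (others 659.96 to 669), Uqcr10 at 808 CPM (others 681 to 698) and Ndufs8 at 193 CPM (others 164 to 166). In KO cold 1 Atp5g3 was at 1395 CPM (others 1176 to 1210.1) and Atp5j at 373 CPM (others 313 to 321). In KO cold 2 Cox6b1 was at 1586 CPM (others 1937 to 1969). In KO cold 3 Atp5j2 was at 358 CPM (others 975 to 1099). In control cold 2 Ndufa11 was at 361 CPM (others 247 to 256) and Cox6b2 at 7.41 CPM (others 6.19 to 6.35). In control cold 1 Atp5g1 was at 4.03 CPM (others 5.56 to 5.65), and in control cold 3 Cox6c2 was at 48.9 CPM (others 42.0 to 42.6). No member was called in the difference of cold responses.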

How the results depend on the processing

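Members called in KO cold against control cold stayed at 0 when any library was left out (0 to 0) and under 11 of 12 other alternatives, and DESeq2 called 1. In KO RT against control RT, leaving out a library gave 0 to 0, and no filter and DESeq2 each called 1, Sdhb. The 6 calls of control cold against control RT were the least stable: leaving out 1 library gave 2 (without control RT 1) to 11 (without control cold 4), and 3 without control cold 2. Upper quartile scaling and total counts gave 3 each. Fitting only the groups compared, the replicate block, and leaving out control RT 1, KO RT 1 and KO RT 2 together (chosen after seeing the data) gave 2 each. Sdhb was among the calls each time. Of all tested genes 2793 were called there, 1067 without control RT 1, 870 without the 3 libraries and 1685 with only the groups compared. Over all genes KO cold against control cold gave 657 calls, and 392 to 425 when a KO cold library was left out, and KO cold against KO RT gave 2090, 1219 without KO RT 1 and 452 without the 3 libraries. In KO cold against KO RT no filter called 1 (Cox6a2) and fitting only the groups compared called 1 (Cox7a1). In the difference of cold responses no filter and DESeq2 called 1 each, Sdhb. Leaving out a library gave 0 to 0 in both. Cox6a2 in control cold against control RT ran from -4.227 (without control RT 2) to +1.419 (without control RT 1), and was +1.417 without the 3 libraries. The cause of these shifts was not tested.

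Correlations of deviations ran from -0.227 to 0.333 between same-numbered libraries, and from -0.333 to 0.299 between the others. The deviations of the 2 control RT libraries mirror each other, and the pairs are few. These values therefore cannot decide whether the numbers pair the libraries. Under the replicate block the counts were 0, 0, 2, 0 and 0 over the 5 contrasts. Of 618 alternative values of single genes, 571 stayed on their side of the threshold, 39 lost the call, 6 gained one and 2 reversed. Depth limits Cox6a2, Atp5g1 and Cox6b2, with at most 74 counts in a library.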
